A study of Homo sapiens with 6 samples.

Results

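The genes described here encode the proteins that license origins of DNA replication, unwind the double helix and copy it at the fork. They are 50 genes chosen by name, from the origin recognition complex to the fork protection proteins. The choice was made with earlier results of these data known, so the counts below describe the list and are not independent support. All 50 were found among the 60612 genes of the deposited table and all 50 passed the filter on low counts. Their RNA was measured by RNA sequencing in U87, an established human glioblastoma cell line grown in DMEM with fetal bovine serum. The control group (NC) was U87 cells given lentivirus with a scramble shRNA, and the knockdown group (shPRMT6) was U87 cells given lentivirus with an shRNA against PRMT6, an arginine methyltransferase that modifies histone H3 among other proteins. The comparison asked which RNA levels differed after PRMT6 was silenced, in a study concerned with the passage of glioblastoma cells through the cell cycle. Each group held 3 libraries, which the methods call independent replicates although the labels do not say that they came from separate cultures, so that p-values measure the spread between these libraries. The paper's supplement describes puromycin selection of infected glioma cells to obtain stable cells, without naming the sequenced libraries. Which PRMT6 shRNA was sequenced, exactly how long after infection RNA was taken and whether cells were cloned are not given in the sources used here. The numbers in the shPRMT6 library names were read as replicate numbers, although the paper numbers its PRMT6 shRNAs likewise.

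Replication origins are licensed in the G1 phase, when the origin recognition complex, CDC6 and CDT1 load the ring of MCM2 to MCM7 onto DNA and geminin later blocks CDT1. In S phase the kinase CDC7 with DBF4 helps recruit CDC45 and the GINS complex to that ring, which then becomes the moving helicase. Polymerase alpha with primase starts each strand, replication factor C loads the sliding clamp PCNA, polymerases delta and epsilon extend the strands, FEN1 and LIG1 finish the fragments of the lagging strand, and CAF-1 packs the copies into chromatin. Many of these genes are known targets of E2F transcription factors, and their RNA is low in resting cells and high in dividing ones.

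The 6 libraries held 56388161 to 75887696 counts in NC and 61805330 to 67630740 in shPRMT6, and values below are in CPM, counts scaled to library size after TMM scaling, unless stated otherwise. No member had fewer than 418 raw counts in any library. Tests used edgeR's quasi-likelihood test over 18106 genes with Benjamini-Hochberg adjustment, and a gene was called at an adjusted p under 0.05. PRMT6 itself (ENSG00000198890, chr1:107056679-107067636, GRCh38, plus strand) was measured at 9.33, 7.97 and 7.19 CPM in NC replicates 1 to 3 and at 3.57, 4.58 and 5.24 CPM in shPRMT6 replicates 1 to 3. Its groups did not overlap, and its log2 fold change was -0.87 with an edgeR adjusted p of 0.0225, which rose past the threshold without NC replicate 1 (0.0613), shPRMT6 replicate 1 (0.0588) or shPRMT6 replicate 2 (0.0713). Of 7 glioma or mesenchymal markers, VIM lay at 7090 to 8427 CPM, CD44 at 455 to 651 CPM, NES at 38.3 to 45.7 CPM and OLIG2 at 2.15 to 3.2 CPM, while S100B was at 0 and SOX2 and GFAP under 1 CPM. The 9p21 genes CDKN2A, CDKN2B and MTAP, known to be deleted in U87, did not exceed 0.434 CPM. The 6 markers of other cell types summed to 10.7 to 14.7 CPM in NC and 13.3 to 14.5 CPM in shPRMT6, with the blood marker PTPRC at 0 in every NC library and at most 0.065 CPM in shPRMT6. They did not move together: the endothelial marker PECAM1 lay at 2.55 to 3.24 CPM in NC and 3.66 to 5.23 CPM in shPRMT6 without overlap (log2 fold change 0.70, edgeR adjusted p = 0.0544, DESeq2 adjusted p = 0.00369), while the neuronal marker SYT1, the most abundant of the 6, overlapped between groups at a log2 fold change of -0.32 (edgeR adjusted p = 0.255). The 10 most abundant genes held 8.28% to 8.57% of counts in NC and 9.66% to 10% in shPRMT6, and the part of these marker levels and of this shift in the results below was not tested.

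RNA of the replication genes was lower after PRMT6 knockdown across most of the machinery. Of the 50 members, 31 (62%) were called lower in shPRMT6 and 0 were called higher by edgeR, against 9.06% of all genes tested called lower and 9.51% called higher. At an unadjusted p under 0.05 the counts were 36 lower and 0 higher, and DESeq2 and limma also called 0 members higher. The shares of all genes at these settings are not given here, so these counts cannot be set against them. Summed over all members, RNA measured 3277, 3229 and 3217 CPM in NC and 2312, 2371 and 2309 CPM in shPRMT6. Every shPRMT6 sum lay below every NC sum, at 71.9% of the NC mean. In bulk RNA of this kind, fewer cells in S phase and less replication gene RNA per cell cannot be told apart.

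The median log2 fold change of the members was -0.46, with a range from -1.03 for ORC1 to 0.14 for RPA2, and 46 of 50 lay below 0. Over all genes tested the median was -0.01, and 51.1% of the genes lay below 0. In 37 members (74%) every shPRMT6 library lay below every NC library, which was the case for 19.9% of all genes. In 0 members did every shPRMT6 library lie above every NC library, which was the case for 20.3% of all genes. The changes were modest in size. With a log2 fold change beyond 1 and an unadjusted p under 0.05, the threshold of the study's methods, only 2 members, ORC1 and MCM10, were lower and 0 were higher, beside 2.63% of all genes lower and 3.29% higher. The members' own RNA took 0.323% to 0.325% of all counts in NC and 0.231% to 0.236% in shPRMT6.

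**Figure D1:**
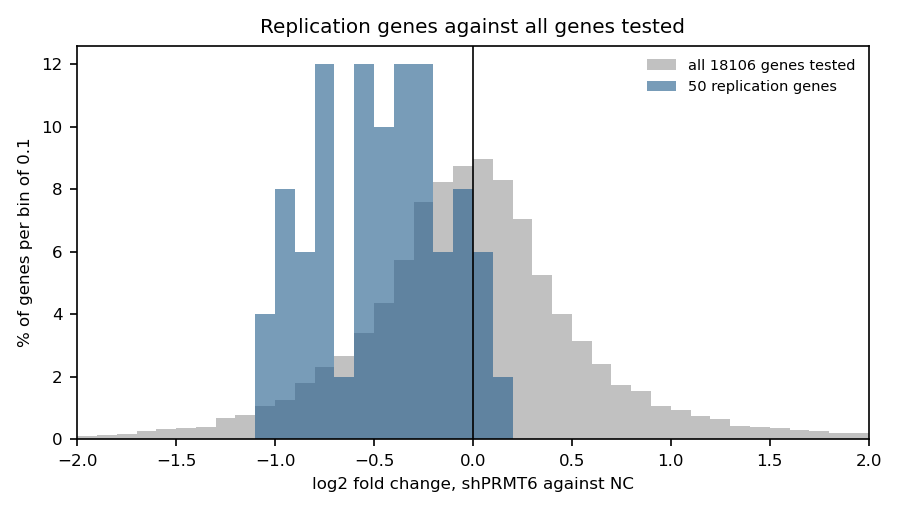
Histogram of log2 fold changes (x axis, shPRMT6 against NC, edgeR) in bins of 0.1, with the percentage of genes per bin on the y axis, for all 18106 genes tested (grey) and the 50 replication genes (blue). The replication genes run from -1.03 to 0.14 around a median of -0.46 while all genes centre at -0.01, and 1.83% of all genes lie beyond the drawn range.

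**Figure D2:**
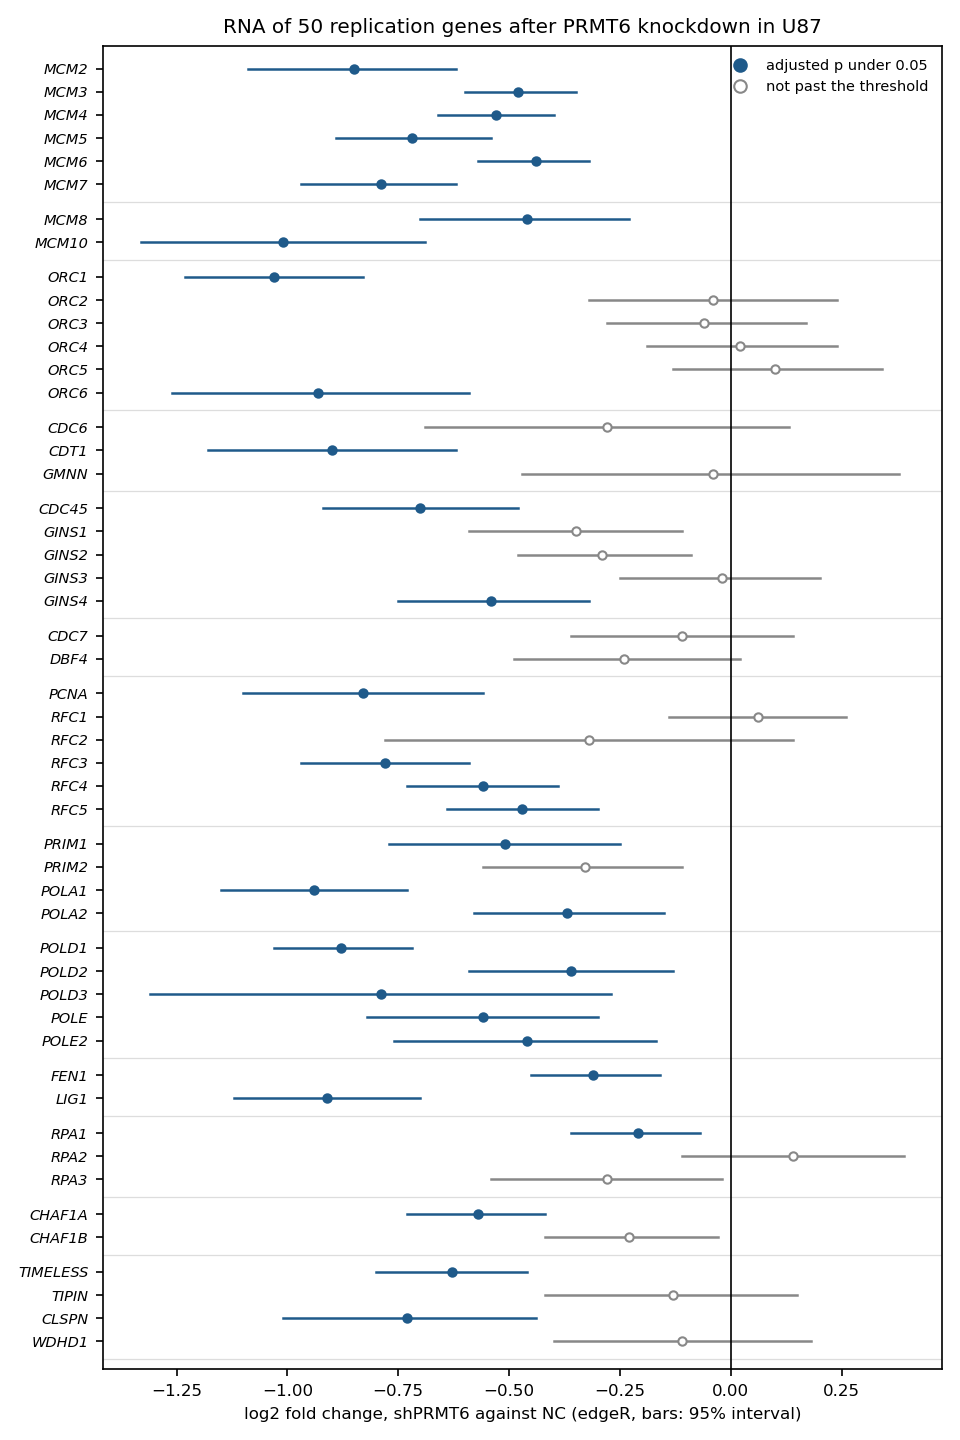
Log2 fold change of each replication gene (x axis, shPRMT6 against NC) with its 95% interval from the edgeR fit as a bar, the genes grouped by role on the y axis. Filled points mark the 31 genes past an adjusted p of 0.05, all left of 0, and open points mark the other 19, among them ORC2, ORC3, ORC4 and ORC5 close to 0.

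The start sites of the members share letters that the choice by name did not use, and these are printed because genes that fell and genes that did not both carry them. Windows from 250 bases before to 50 bases after each RefSeq start (GRCh38.p14) were matched for 44 of the 50 members, in 55 windows, and GINS4, MCM4, MCM5, POLD3, RPA2 and RPA3 were not matched. E2F-type letters (TTTCCCGC, TTTGGCGC, TTTGCCGC or TTTCGCGC, either strand, overlapping matches counted) stood in 40% of the member windows, in 4.75% of the 17068 windows of genes tested and in 3.31% of all 35116 windows, with base composition not matched. By gene, 14 of 27 members called lower (51.9%) and 8 of 17 members not called (47.1%) held them. A match describes letters and not a bound site. The CCAAT box (CCAAT, either strand) stood in 54.5% of the member windows, 34.8% of the windows of genes tested and 34.6% of all windows. By gene, 18 of 27 members called lower (66.7%) and 8 of 17 not called (47.1%) held it, a difference that was not tested. The letters TTTGAA of the cell cycle element CHR, either strand, stood in 1.82% of the member windows, that of DBF4, in 11% of the windows of genes tested and in 15.2% of all windows.
The window of MCM6 held the most E2F-type matches, 4 in overlapping pairs that begin at -152 and -148 and at -90 and -86 from the start, and the piece that spans them is printed for that reason (chr2:135876510-135876607, GRCh38.p14, minus strand). Stretches of 30 bases around the match nearest to the start follow for 6 further members called lower, MCM3 (chr6:52284728-52284757, minus), MCM7 (chr7:100101388-100101417, minus), CDT1 (chr16:88803743-88803772, plus), PCNA (chr20:5126663-5126692, minus), POLA1 (chrX:24693770-24693799, plus) and LIG1 (chr19:48170440-48170469, minus). The same is shown for 3 members not called, ORC3 (chr6:87590112-87590141, plus), CDC6 (chr17:40287875-40287904, plus) and GMNN (chr6:24775322-24775351, plus). All are written 5′ to 3′ on the strand of the gene, with the E2F-type letters in capitals.
MCM6: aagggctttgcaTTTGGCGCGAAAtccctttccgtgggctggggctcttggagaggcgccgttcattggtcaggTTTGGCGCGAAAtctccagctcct
MCM3: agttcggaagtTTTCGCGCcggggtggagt
MCM7: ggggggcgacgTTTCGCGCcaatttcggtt
CDT1: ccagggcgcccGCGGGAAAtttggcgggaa
PCNA: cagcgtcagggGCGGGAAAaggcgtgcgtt
POLA1: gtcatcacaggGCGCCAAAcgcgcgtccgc
LIG1: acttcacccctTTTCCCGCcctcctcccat
ORC3: cgcgagggcgcGCGGGAAAtcccgagtgca
CDC6: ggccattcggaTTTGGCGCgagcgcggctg
GMNN: gctgggtcggtTTTGGCGCgctctcacttc
The capitals of MCM3 and MCM7 are the same run of letters, and those of CDT1, PCNA and ORC3 are another shared run. CDC6 and GMNN carry the run that also stands in MCM6. Read on the other strand, the run of POLA1 is that of CDC6 and GMNN. The run of LIG1 read so is that of CDT1, PCNA and ORC3, and MCM6 also holds the run of MCM3 and MCM7. No run was found in the windows of ORC1, MCM10, POLD1 or RFC4, which were among the members called lower.

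The replicative helicase ring fell as a whole: all 6 of MCM2 to MCM7 were called lower, with log2 fold changes from -0.85 to -0.44 and a median of -0.62. Together they measured 1185, 1140 and 1162 CPM in NC and 766, 777 and 748 CPM in shPRMT6, which is 65.7% of the NC mean. None of the 6 overlapped between groups, and all 6 remained called whichever library was left out. MCM7 (chr7:100092728-100101940, minus strand), which had the smallest p of the ring, measured 248, 226 and 246 CPM in NC and 141, 146 and 128 CPM in shPRMT6. Its log2 fold change was -0.79 (SE 0.0731, edgeR adjusted p = 0.00153). MCM2 (chr3:127598223-127622436, plus strand), the subunit that also binds histones, measured 111, 129 and 117 CPM in NC and 61.8, 73.6 and 61.7 CPM in shPRMT6. It had the largest change of the ring, with a log2 fold change of -0.85 (SE 0.0987, edgeR adjusted p = 0.00275). Genes on the opposite strand overlap 23.6% of the exon bases of MCM2 (TPRA1 and AC023593.1) and 8.94% of those of MCM7 (AP4M1), and the use of strand in counting is not given in the sources used here.

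On the deposited FPKM scale the ring subunits were not equal in either group. The length in this scale followed the merged annotated exons of a gene, 7338 bases for MCM5 and 3650 for MCM3, and not a transcript. The order and ratios of the subunits below depend on that length. By mean CPM, MCM2 was the lowest, at 119 in NC and 65.7 in shPRMT6, against 143 and 87.4 for MCM5. By FPKM, MCM5 was the lowest at 16.6 ± 1.18 FPKM (SD, n = 3) in NC and 10.2 ± 0.377 FPKM in shPRMT6. MCM3 was the highest at 56.6 ± 1.8 and 40.9 ± 0.415 FPKM. The ratio of highest to lowest was 3.41 in NC and 4.02 in shPRMT6. The order by FPKM from high to low was MCM3, MCM7, MCM6, MCM4, MCM2 and MCM5 in NC, and MCM3, MCM6, MCM7, MCM4, MCM2 and MCM5 in shPRMT6. MCM7 and MCM6 were thus exchanged, at 46.1 ± 2.35 and 42.3 ± 1.19 FPKM in NC, where the lowest MCM7 library and the highest MCM6 library were both at 43.4 FPKM, and at 26.7 ± 1.78 and 31.3 ± 0.965 FPKM in shPRMT6, where the libraries of the pair did not overlap.

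MCM8 and MCM10, the members outside the ring, were called lower too. MCM10 (chr10:13161554-13211104, plus strand), which helps to activate the loaded helicase, measured 24, 29.2 and 30.3 CPM in NC and 12.8, 13 and 15.6 CPM in shPRMT6. The groups were well apart, at 49.7% of the NC mean, with a log2 fold change of -1.01 (SE 0.133, edgeR adjusted p = 0.00443). MCM8, which acts in recombination, had a log2 fold change of -0.46 with an edgeR adjusted p of 0.0221. Its call was lost without NC replicate 3 (0.0527), shPRMT6 replicate 1 (0.0683) or shPRMT6 replicate 2 (0.0782). MCM9, a partner of MCM8 in the list of other replication genes, was not called, with a log2 fold change of -0.30 (edgeR adjusted p = 0.158), and is named after its value was seen.

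The origin recognition complex did not move as a unit. ORC1 and ORC6 were called lower and ORC2, ORC3, ORC4 and ORC5 were not. ORC1 (chr1:52372829-52404459, minus strand), the subunit that joins in G1 and is degraded in S phase in human cells, measured 26.2, 29.1 and 27.5 CPM in NC and 13.9, 13.4 and 13.2 CPM in shPRMT6. The shPRMT6 mean was 48.9% of the NC mean without overlap, and the log2 fold change was -1.03 (SE 0.0848, edgeR adjusted p = 0.00114), the largest of all members. ORC6 (chr16:46689643-46698394, plus strand), the smallest subunit, measured 43.3, 37.3 and 35.1 CPM in NC and 16.8, 22.3 and 21.7 CPM in shPRMT6, and is given by library because its value was seen to be close to that of ORC1. Its groups did not overlap either, with a log2 fold change of -0.93 (SE 0.14, edgeR adjusted p = 0.00671).

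ORC2 to ORC5, the subunits that form the core of the complex, overlapped between groups in each case. Their log2 fold changes were -0.04 for ORC2 (95% interval -0.32 to 0.24), -0.06 for ORC3 (-0.28 to 0.17), 0.02 for ORC4 (-0.19 to 0.24) and 0.10 for ORC5 (-0.13 to 0.34). These intervals do not meet those of ORC1 (-1.23 to -0.83) and ORC6 (-1.26 to -0.59). Summed, the 4 measured 120, 133 and 114 CPM in NC and 121, 128 and 119 CPM in shPRMT6. On the FPKM scale the ratio of ORC1 to the mean of ORC2 to ORC5 was 1.33, 1.34 and 1.51 in NC and 0.707, 0.649 and 0.683 in shPRMT6. ORC1 relative to these subunits was thus lower in every shPRMT6 library than in every NC library. Whether ORC1 lay above or below their mean depends on the exon lengths that FPKM uses. The ratio was chosen after the values were seen and was not tested.

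**Figure D3:**
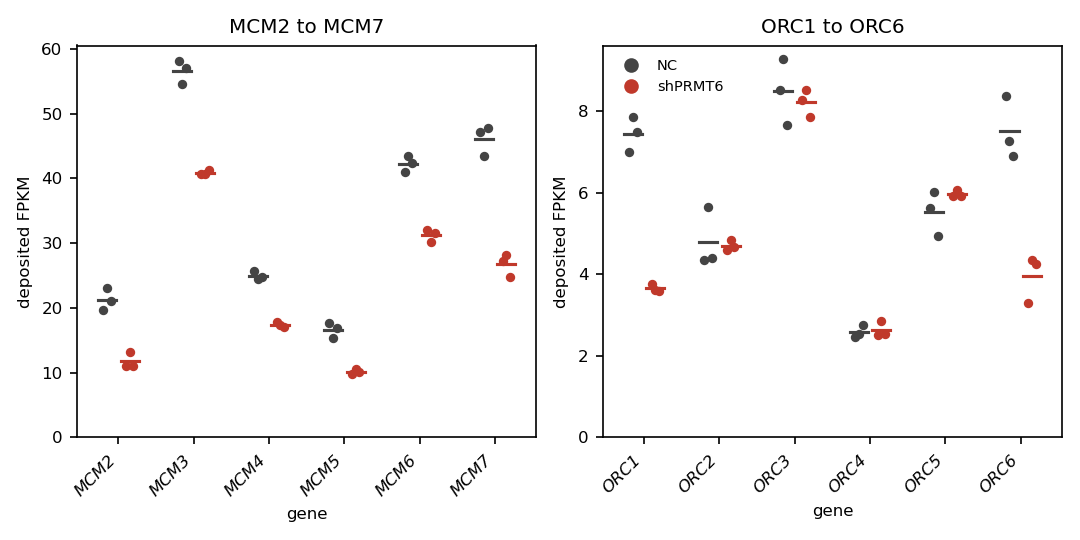
Deposited FPKM (y axis, from 0) of each library for MCM2 to MCM7 (left) and ORC1 to ORC6 (right), NC in grey and shPRMT6 in red, with a line at each mean of 3 libraries. All 6 MCM genes and ORC1 and ORC6 separate by group, while ORC2 to ORC5 overlap.

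Of the loading factors, only CDT1 was called lower. CDT1 (chr16:88803213-88809258, plus strand), which brings the MCM ring to the origin, measured 45.9, 36 and 43.4 CPM in NC and 23.8, 22.8 and 20.6 CPM in shPRMT6. The groups were apart, with a log2 fold change of -0.90 (SE 0.116, edgeR adjusted p = 0.00418). CDC6, its partner in loading, measured 76, 72.4 and 61.1 CPM in NC and 47.7, 72.8 and 52.2 CPM in shPRMT6, chosen for display after its values were seen. shPRMT6 replicate 2 lay among the NC libraries and the other shPRMT6 libraries lay below them, and the log2 fold change of -0.28 was not called (95% interval -0.69 to 0.13, edgeR adjusted p = 0.319).

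GMNN, which encodes the CDT1 inhibitor geminin, measured 24.4, 34.1 and 40.5 CPM in NC and 32.8, 32.8 and 30.5 CPM in shPRMT6. All shPRMT6 libraries fell within the wide NC range, with a log2 fold change of -0.04 (95% interval -0.47 to 0.38). On the FPKM scale CDT1 relative to GMNN was 1.69, 0.946 and 0.961 in NC and 0.653, 0.626 and 0.606 in shPRMT6. The groups did not overlap in this ratio, which was chosen after the values were seen and not tested, and NC replicate 1, with the lowest GMNN level, stood high.

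CDC45 and the GINS complex join the ring to make the active helicase, and 2 of these 5 genes were called lower. CDC45 (chr22:19479459-19520612, plus strand) measured 37.6, 33.3 and 35.6 CPM in NC and 23.6, 21.6 and 20.3 CPM in shPRMT6. It showed no overlap between groups, with a log2 fold change of -0.70 (SE 0.0928, edgeR adjusted p = 0.00451). GINS4 had a log2 fold change of -0.54 (edgeR adjusted p = 0.01), with genes on the opposite strand over 23.6% of its exon bases. GINS1 at -0.35 and GINS2 at -0.29 did not overlap between groups but missed the threshold in edgeR with adjusted p of 0.054 and 0.0557. Both were called by DESeq2, with adjusted p of 0.00313 and 0.003. GINS3 stood at -0.02 (95% interval -0.25 to 0.20), with a gene on the opposite strand over 10.9% of its exon bases.

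The kinase pair that fires origins was not called. DBF4, the regulatory subunit, measured 17.1, 17.7 and 17.6 CPM in NC and 14.4, 13.4 and 16.7 CPM in shPRMT6. All shPRMT6 libraries lay below the NC libraries, the nearest by under 1 CPM, and the log2 fold change of -0.24 had an edgeR adjusted p of 0.182. A processed copy, DBF4P1, shares 8.61% of the 75-base stretches of DBF4. CDC7, the catalytic subunit, stood at -0.11 with a 95% interval from -0.36 to 0.14.

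The sliding clamp and most of its loader fell: 4 of 6 genes were called lower and RFC1 and RFC2 were not. PCNA (chr20:5114953-5126626, minus strand), the clamp that tethers the polymerases, measured 116, 133 and 129 CPM in NC and 72.3, 79.9 and 60.8 CPM in shPRMT6. Its lowest NC library stood well above its highest shPRMT6 library, and the log2 fold change was -0.83 (SE 0.113, edgeR adjusted p = 0.00502). RFC3 (chr13:33818049-33966558, plus strand), a small loader subunit, measured 41.5, 45.4 and 42.9 CPM in NC and 24.1, 24.7 and 26.8 CPM in shPRMT6. The libraries were tight within each group, with a log2 fold change of -0.78 (SE 0.0806, edgeR adjusted p = 0.00199).

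The small loader subunits RFC4 and RFC5 were also called lower, with log2 fold changes of -0.56 and -0.47, and the small subunit RFC2 was not. RFC1, the large subunit, did not share this change, at 0.06 with a 95% interval from -0.14 to 0.26. Genes on the opposite strand overlap 10.6% of the exon bases of RFC5 (WSB2 and AC131159.2). RFC2 measured 73, 47.9 and 69.6 CPM in NC and 41.4, 53.3 and 58.2 CPM in shPRMT6, chosen for display after its values were seen. NC replicate 2 lay inside the shPRMT6 range while the other NC libraries lay above it, and the log2 fold change of -0.32 was not called (95% interval -0.78 to 0.14). On the FPKM scale RFC3 relative to RFC1 was 1.5, 1.35 and 1.38 in NC and 0.73, 0.78 and 0.846 in shPRMT6. The ratio was thus lower in each shPRMT6 library than in each NC library. Which RNA was the more abundant depends on the exon lengths that FPKM uses, and by CPM RFC1 lay above RFC3 in every library. The ratio of RFC3 to RFC1 too was chosen after the values were seen.

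Of primase and polymerase alpha, which lay down the first stretch of each strand, 3 of 4 genes were called lower. POLA1 (chrX:24693919-24996986, plus strand), the catalytic subunit, measured 40.9, 48.4 and 42.8 CPM in NC and 22.9, 23.3 and 22.7 CPM in shPRMT6. The shPRMT6 libraries were nearly equal and far below NC, with a log2 fold change of -0.94 (SE 0.0878, edgeR adjusted p = 0.00156). PRIM1 at -0.51 and POLA2 at -0.37 were also called, with edgeR adjusted p of 0.0227 and 0.0338, but each kept its call in only 1 of the 6 fits that left out a library, that without NC replicate 2 (0.0268 and 0.0379), and reached 0.0768 and 0.118 in the others. Another gene on the same strand overlaps 35.1% of the exon bases of POLA2 (AP000944.2), and 16.2% of those of PRIM1 lie under such genes. PRIM2 at -0.33 did not overlap between groups and had an edgeR adjusted p of 0.0552 and a DESeq2 adjusted p of 0.00303. Other genes share 9.06% of the 75-base stretches of PRIM2.

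Of the replicative polymerases delta and epsilon, all 5 subunits among the 50 members were called lower. The remaining subunits, in the list of other replication genes, were not lower: POLD4 was called higher, as given below, and POLE3 at -0.03 and POLE4 at -0.16 were not called (edgeR adjusted p = 0.764 and 0.516), the last named after their values were seen. POLD1 (chr19:50384204-50418016, plus strand), the catalytic subunit of polymerase delta, measured 76.9, 69.6 and 73.4 CPM in NC and 39.6, 40.2 and 40 CPM in shPRMT6. It had the smallest p of all members, with a log2 fold change of -0.88 (SE 0.0653, edgeR adjusted p = 0.000814), and stood 57th by p among all genes that were lower. Of its exon bases 8.64% are overlapped by another gene on the same strand, AC020909.1. POLE, the catalytic subunit of polymerase epsilon, had a log2 fold change of -0.56 (edgeR adjusted p = 0.0155), a call lost without NC replicate 3 (0.0549).

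The accessory subunits POLD2, POLD3 and POLE2 were called close to the threshold, with log2 fold changes of -0.36, -0.79 and -0.46 and edgeR adjusted p of 0.0436, 0.0499 and 0.0453. POLD3 measured 28.5, 32.7 and 29 CPM in NC and 20.5, 20 and 11.7 CPM in shPRMT6, chosen for display after its values were seen. shPRMT6 replicate 3 was far below the others. Without it the log2 fold change was -0.57 (edgeR adjusted p = 0.0321), and without any other library the call was lost, with adjusted p from 0.071 to 0.118. POLD2 kept its call only without NC replicate 2 (0.0162), and POLE2 lost its call whichever library was left out (0.078 to 0.134). On the FPKM scale POLD1 relative to POLD2 was 0.451, 0.519 and 0.483 in NC and 0.342, 0.345 and 0.324 in shPRMT6, with no overlap between groups and no test.

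Both enzymes that finish the lagging strand were lower. LIG1 (chr19:48115445-48170603, minus strand), the ligase that seals the fragments, measured 35.9, 41.3 and 41.3 CPM in NC and 21.5, 20.4 and 21.3 CPM in shPRMT6. The groups were far apart, with a log2 fold change of -0.91 (SE 0.0876, edgeR adjusted p = 0.0017). FEN1, the flap nuclease that works just before it, changed less, at -0.31 (edgeR adjusted p = 0.0167), and kept its call only without NC replicate 1 (0.0383) or NC replicate 2 (0.0198). The 95% intervals of these changes, -1.12 to -0.70 for LIG1 and -0.45 to -0.16 for FEN1, do not meet.

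Replication protein A, which coats single-stranded DNA, differed least among the classes, at 95.4% of NC in summed CPM. RPA1 (chr17:1829702-1900082, plus strand), the large subunit, measured 92.6, 94.7 and 90 CPM in NC and 81.3, 76.2 and 81.5 CPM in shPRMT6. The groups did not overlap, but the log2 fold change was only -0.21, with an edgeR adjusted p of 0.0499 that rose to between 0.0854 and 0.177 whichever library was left out. RPA3 (chr7:7636518-7718607, minus strand), the small subunit, measured 25.7, 21.9 and 26.4 CPM in NC and 20.7, 21.5 and 18.7 CPM in shPRMT6. Its groups nearly touched, and the log2 fold change of -0.28 was not called by edgeR (adjusted p = 0.13), while DESeq2 gave 0.0473. RPA2 overlapped between groups at 0.14 (95% interval -0.11 to 0.39), the highest value among the 50 members.

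CAF-1 deposits new histones behind the fork, and CHAF1A (chr19:4402662-4445018, plus strand), its large subunit, was called lower. It measured 97.6, 104 and 101 CPM in NC and 68.3, 64 and 71.2 CPM in shPRMT6. These groups were apart, with a log2 fold change of -0.57 (SE 0.0653, edgeR adjusted p = 0.00267). CHAF1B at -0.23 did not overlap between groups and was not called by edgeR (adjusted p = 0.106), while DESeq2 gave 0.0195.

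Among the fork protection proteins, TIMELESS and CLSPN were called lower and TIPIN and WDHD1 were not. TIMELESS (chr12:56416373-56449403, minus strand), which steadies the fork, measured 75.9, 72.2 and 70.7 CPM in NC and 44.4, 49.8 and 47.4 CPM in shPRMT6. Its groups were apart, with a log2 fold change of -0.63 (SE 0.0707, edgeR adjusted p = 0.00255). CLSPN (chr1:35720218-35769967, minus strand), which encodes claspin, a mediator of the replication checkpoint, measured 33.8, 44.7 and 38.5 CPM in NC and 22.9, 22.6 and 25.1 CPM in shPRMT6. NC replicate 2 was high, yet every NC library exceeded every shPRMT6 library, and the log2 fold change was -0.73 (SE 0.119, edgeR adjusted p = 0.00885). TIPIN, the partner of TIMELESS, stood at -0.13 (95% interval -0.42 to 0.15), and WDHD1, which links the helicase to polymerase alpha, at -0.11 (-0.40 to 0.18). The ribosomal protein pseudogene RPL9P25 overlaps 21% of the exon bases of TIPIN on the same strand.

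**Figure D4:**
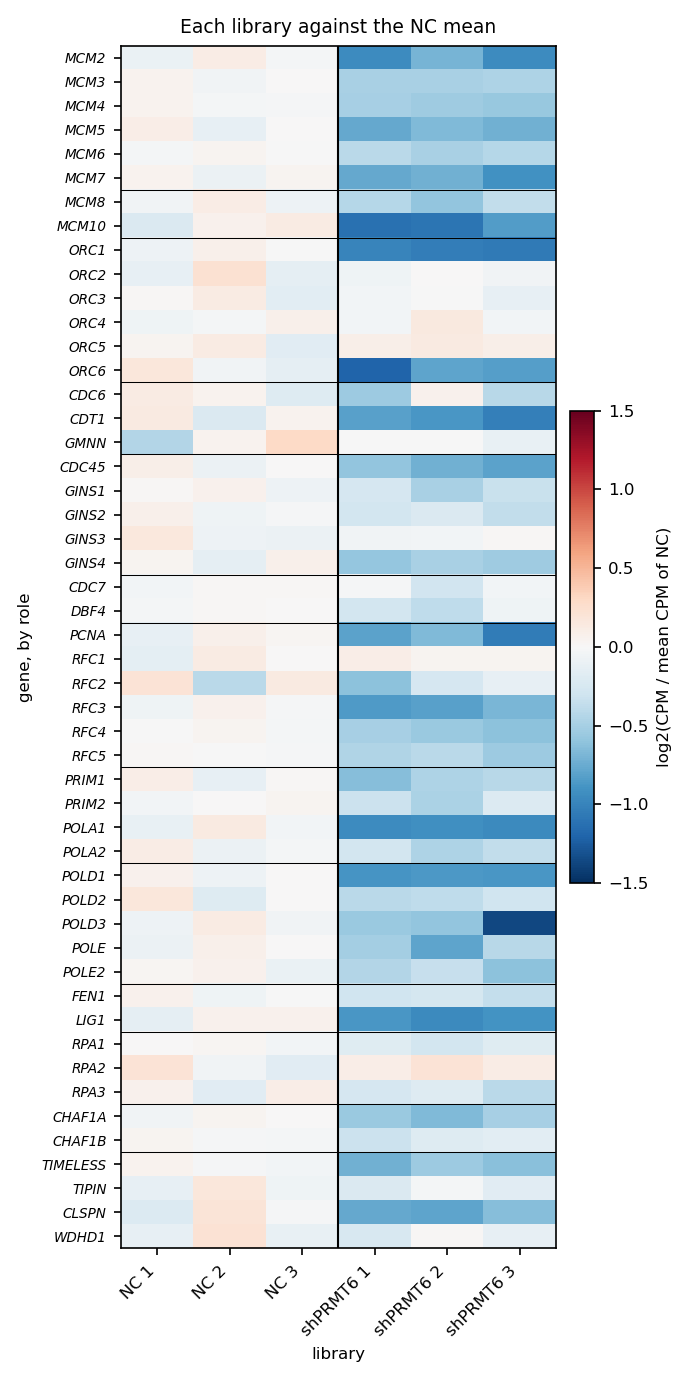
Log2 of each library's CPM over the mean CPM of NC (colour, blue below 0 and red above) for the 50 replication genes (rows, by role) in the 3 NC and 3 shPRMT6 libraries (columns). Most rows are blue in all shPRMT6 columns. ORC2, ORC4, ORC5, RFC1, RPA2, CDC6, GINS3 and WDHD1 each have a shPRMT6 square above 0. ORC3 and GMNN lie close to 0 in shPRMT6, while GMNN is below 0 in NC replicate 1 and above 0 in NC replicate 3. Single squares stand apart for CDC6 in shPRMT6 replicate 2, GMNN in NC replicate 1, RFC2 in NC replicate 2 and POLD3 in shPRMT6 replicate 3.

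Calls of single members held unevenly. Of the 31 members called lower, 22 kept the call whichever library was left out and 9 lost it in at least 1 such fit, namely MCM8, PRIM1, POLA2, POLD2, POLD3, POLE, POLE2, FEN1 and RPA1. Overlapping and near-identical genes were looked up in the annotation over the whole list, and reads were not examined. Of the 35 members with under 5% of exon bases overlapped and under 5% of 75-base stretches shared, 22 were called lower, at the same median log2 fold change of -0.46. Over all genes tested, not restricted in this way, 9.06% were called lower.

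A second list held 30 genes that act beside these proteins at origins and forks, also chosen with earlier results known. Its median log2 fold change was -0.45. By edgeR 15 were called lower, 1 higher and 14 neither, beside 9.06% of all genes called lower and 9.51% higher. In 20 every shPRMT6 library lay below every NC library, beside 19.9% of all genes. Unlike the members, 4 of the 30 had every shPRMT6 library above every NC library, a smaller share than the 20.3% of all genes. They were POLD4, CHTF8 at 0.58, RNASEH1 at 0.20 and ASF1A at 0.18, all but POLD4 named after their values were seen. DESeq2 also called CHTF8 and ASF1A higher (adjusted p = 0.0169 and 0.0391). SSRP1, a subunit of the histone chaperone FACT, measured 425, 415 and 389 CPM in NC and 264, 261 and 268 CPM in shPRMT6. The groups were far apart, with a log2 fold change of -0.63 and the smallest p of this list (edgeR adjusted p = 0.00119). Its partner SUPT16H overlapped between groups, at 0.12 (95% interval -0.04 to 0.28), and is named after its value was seen.

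DONSON, which helps to deliver GINS to the ring, measured 32.8, 31.9 and 32.3 CPM in NC and 19.5, 18.9 and 18.9 CPM in shPRMT6. PCLAF, a small protein bound to PCNA, measured 40.3, 34.8 and 38 CPM in NC and 19.4, 18.8 and 15.6 CPM in shPRMT6. Both separated without overlap, with log2 fold changes of -0.76 and -1.07 and edgeR adjusted p of 0.0016 and 0.00213. ASF1B, a chaperone that hands histones to CAF-1, measured 82.9, 75.5 and 83.8 CPM in NC and 44.2, 38.6 and 34 CPM in shPRMT6. RNASEH2A, the catalytic subunit of the nuclease that removes ribonucleotides from DNA, measured 92.2, 70 and 83.1 CPM in NC and 43, 42.5 and 43 CPM in shPRMT6. These genes too were apart, with log2 fold changes of -1.05 and -0.93 and edgeR adjusted p of 0.00199 and 0.00259.

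POLD4, the smallest subunit of polymerase delta, was the 1 gene of this list called higher by edgeR, opposite to POLD1, POLD2 and POLD3. It measured 23.4, 19.5 and 27.2 CPM in NC and 35.7, 33 and 31.2 CPM in shPRMT6. Every shPRMT6 library exceeded every NC library, and the log2 fold change was 0.51 (SE 0.134, edgeR adjusted p = 0.0444). The call held without NC replicate 3 (0.0357) and was lost without any other library (0.0649 to 0.132), while the value remained above 0 in each of these fits.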

How the data were processed

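For 6 U87 libraries the authors deposited a raw, unscaled count and an FPKM value (scaled to length and library size) of each gene. Genes without reads were listed at 0.0001 FPKM. The length in FPKM followed the merged annotated exons of the members and not a transcript, so levels of different genes depend on it. Submitters' processing notes name HISAT2, HTSeq 0.13.5 and GRCh38, with no role or order; aligner settings, annotation release and strand are not given in the sources used here. The labels name Trizol for extraction and the methods an RNeasy kit.

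Counts were tested with edgeR 4.0.16 (TMM, its filter on low counts, quasi-likelihood test, Benjamini-Hochberg adjustment over 18106 genes, no replicate block) in R 4.3.3. Intervals of 95% use the fit's standard error and 6.62 degrees of freedom. Alternatives were DESeq2 1.42.0, other scalings and filters, a replicate block, limma 3.58.1 on log2(FPKM + 1) or log2(FPKM + 0.1), stricter thresholds and each library left out. Programs were tested on simulated data. Replicates within a group were not duplicates (chi-square per degree of freedom 54.6 to 90.2).

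Loci and overlaps came from GENCODE 29 and promoter windows from RefSeq. Values by library are given for PRMT6, for the members with the smallest p and the largest change in each of 13 classes, and, of 30 other replication genes, for the 5 smallest p and any called higher; every member not called is named, and others were chosen after their values were seen. The members and lists were chosen with earlier results of these data known.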

Additional observations from a re-analysis of the deposited data

How the results depend on the processing

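Of 750 values of single members over 15 alternatives, 669 kept their direction and their side of the threshold, 60 no longer passed it, 13 newly passed it and 8 changed sign, none of them in a called member. All 8 arose with 1 library left out, where the log2 fold change ranged from -0.11 to 0.09 for ORC2 (above 0 without NC replicate 2), -0.13 to 0.01 for ORC3 and -0.18 to 0.01 for WDHD1 (likewise), -0.04 to 0.06 for ORC4 (below 0 without NC replicate 1 or shPRMT6 replicate 2), -0.01 to 0.13 for RFC1 (below 0 without NC replicate 1), -0.07 to 0.06 for GINS3 (above 0 without NC replicate 1) and -0.22 to 0.13 for GMNN (above 0 without NC replicate 3). Among the other replication genes, RIF1 ranged from -0.40 to 0.10 (above 0 without NC replicate 2) and RNASEH2C from -0.03 to 0.39 (below 0 without NC replicate 2 or shPRMT6 replicate 2), neither of them called. Members called lower numbered 36 with DESeq2, 32 without scaling factors, 31 with upper quartile factors, 32 with at least 10 counts in every library, 26 with at least 1 count in any library, 34 with limma on log2(FPKM + 1) or log2(FPKM + 0.1), 25 with limma without the filter on FPKM, 21 at an adjusted p under 0.01 and 22 to 28 with 1 library left out, where fewer samples were tested. The shares of all genes called at these settings are not given here, so a larger or smaller number of members cannot be weighed against them. A log2 fold change beyond 1 with an unadjusted p under 0.05 left 2 members and 2 of the other replication genes lower. With 1 library left out, 10 to 14 of the other replication genes were lower and 0 to 1 higher. The number called higher among them was 3 with DESeq2 and 0 with at least 1 count in any library, limma on log2(FPKM + 1) without the filter, an adjusted p under 0.01 or a log2 fold change beyond 1, and the cause was not tested. The members' median log2 fold change was -0.48 to -0.44 with 1 library left out and -0.37 with limma on log2(FPKM + 1), with or without the filter, where the added 1 shrinks the change of low genes.

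Libraries of the same replicate number showed no shared pattern: their deviations from the group means correlated at -0.0248, -0.0171 and -0.0301. Between libraries of different numbers the correlations were -0.0195 to 0.0449. These values cannot tell whether libraries of the same number were prepared together. With a replicate block, edgeR called 22 members lower, all 22 among the 31, and 0 of the other replication genes higher, and over all genes 908 lower and 950 higher in place of 1641 and 1721.

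Each member had at least 418 counts in every library. With 3 libraries a group, an exact permutation test of 1 gene could not go below a two-sided p of 0.1, so single genes were tested only in fits over all genes. Members of a class are not replicates of one another, and protein was not analysed here.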
